A study of Mus musculus with 8 samples.

Results

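Expression of 10 genes of the heat shock protein and cochaperone system (Hsph1, Hspd1, Hspe1, Hspa4, Hspa8, Hsp90aa1, Hspb1, Dnajb1, Bag3 and Hsf1) was followed on 8 Illumina arrays. The genes were listed by symbol, and their probes were found through the platform annotation. Of these, 9 had a probe and 9 passed the filter on dim probes, against 8793 genes tested in all. No probe was paired with Hsf1, the transcription factor that drives heat shock genes, so no level is given for it. The 9 measured genes were represented by 15 of the 23978 probes in the table. The cells were macrophages of C57BL/6 mice, drawn into the peritoneal cavity by the irritant thioglycollate. Some cells carried an siRNA against MLL (siMLL), a histone H3 lysine 4 methyltransferase, others an siRNA against GABP (siGABP), an ETS family transcription factor, and others a control siRNA (siCtrl). For each siRNA, cells were treated for 6 h with Kdo2 lipid A (KLA), a specific agonist of Toll-like receptor 4, or were left untreated. The KLA groups held 1 array for each siRNA, as did the siGABP and siCtrl untreated groups, and the siMLL untreated group held 3 arrays. All cells thus carried an siRNA. The labels do not say whether those 3 arrays came from separate animals or cultures, so every p-value measures only the spread between these samples, which may be technical.

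Heat shock proteins are chaperones that bind unfolded polypeptides and release them in cycles of ATP hydrolysis. Hspa8 is the constitutive cytosolic HSP70, the DnaJ protein Dnajb1 delivers substrates to HSP70 and stimulates its ATPase, and Hsph1, Hspa4 and Bag3 are nucleotide exchange factors that make HSP70 release ADP and substrate. Hspd1 (HSP60) and its lid Hspe1 (HSP10) form the folding chamber of the mitochondrial matrix, Hsp90aa1 is the inducible cytosolic HSP90, and Hspb1 is a small heat shock protein that holds unfolded clients. Many of these genes are induced by HSF1, which binds heat shock elements, inverted repeats of the unit NGAAN.

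Promoter windows from RefSeq (build GRCm38.p6), running from 250 bases before to 50 bases after an annotated transcription start, were given for 7 of the 10 genes (10 windows), all but Hspa8, Hsp90aa1 and Hsf1. Both strands were searched for a heat shock element of 2 units (GAANNTTC or TTCNNGAA), for one of 3 units (the same blocks alternating once more, so that each contains 2-unit elements), for the ETS core CCGGAAG that GABP recognizes, and for TATAAA. A 3-unit element was found in 4 of the 10 windows, belonging to Hspd1, Hspe1 and Hsph1, against 0.603% of the 32851 windows of all genes. The Hspe1 window and 1 of the Hspd1 windows held the same element, as did the overlapping windows of Hsph1. A 2-unit element was found in 6 of 10 windows, those 4 with the windows of Bag3 and Hspb1, against 15.1% of all windows. The ETS core was found in 2 of 10 windows, of Hspd1 and Hspe1 (8.86% of all windows), which held the same stretch of DNA. TATAAA was found in 0 of 10 (13.6% of all windows). The windows of Dnajb1 and Hspa4 held none of the 4 motifs. These are matches of letters in a window, not measured sites.

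The windows of Hspe1, Hsph1 and Bag3 are shown because these genes, with Hspd1, had the lowest KLA responses among the members. Capitals mark the longest heat shock element of each window, 5′ to 3′ on the gene's strand.
Hspe1, chr1:55087898-55088197, plus strand: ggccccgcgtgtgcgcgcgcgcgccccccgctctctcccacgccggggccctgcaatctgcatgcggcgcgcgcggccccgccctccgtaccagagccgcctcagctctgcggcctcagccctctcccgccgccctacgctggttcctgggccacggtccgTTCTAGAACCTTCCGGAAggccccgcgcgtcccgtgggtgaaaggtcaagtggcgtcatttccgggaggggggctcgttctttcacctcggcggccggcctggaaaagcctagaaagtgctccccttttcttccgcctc
Hsph1, chr5:149636266-149636565, minus strand: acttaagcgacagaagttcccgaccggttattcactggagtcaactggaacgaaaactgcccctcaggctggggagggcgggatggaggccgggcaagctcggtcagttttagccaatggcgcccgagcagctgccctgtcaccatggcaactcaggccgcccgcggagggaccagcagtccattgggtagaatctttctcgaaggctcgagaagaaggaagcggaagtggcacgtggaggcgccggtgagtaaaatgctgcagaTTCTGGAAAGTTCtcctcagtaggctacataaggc
Bag3, chr7:128523333-128523632, plus strand: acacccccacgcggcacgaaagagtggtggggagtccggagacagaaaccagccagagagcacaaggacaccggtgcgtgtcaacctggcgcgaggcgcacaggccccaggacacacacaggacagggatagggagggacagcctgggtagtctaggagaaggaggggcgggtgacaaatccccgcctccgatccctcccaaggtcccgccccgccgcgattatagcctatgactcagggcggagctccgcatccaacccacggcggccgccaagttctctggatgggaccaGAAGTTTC

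Hspe1 and Hspd1 lie on opposite strands. The starts of the printed Hspe1 window and of one Hspd1 window (chr1:55087883-55088182, minus strand) lay 216 bases apart and pointed away from each other. Those windows shared 285 bases, so the run of 18 bases in capitals, 4 units long, lay in both. It was at positions -89 to -72 of the Hspe1 window and -144 to -127 of that Hspd1 window. In each of these windows 2 ETS core matches, overlapping on opposite strands of the same stretch, lay on this element. They shared 6 and 7 bases with it. The other Hspd1 start (window chr1:55088194-55088493, minus strand) lay inside Hspe1, 95 bases from the Hspe1 start. From that start the genes overlap and the element lies within Hspd1, and that window held none of the motifs. The 3-unit element of Hsph1 lay downstream of the start, at 16 to 28 of the printed window and 37 to 49 of its other window. A separate 2-unit element, in lower case, lay at -54 to -47 of the printed Hsph1 window. The 2-unit element of Bag3 lay at 43 to 50.

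**Figure D1:**
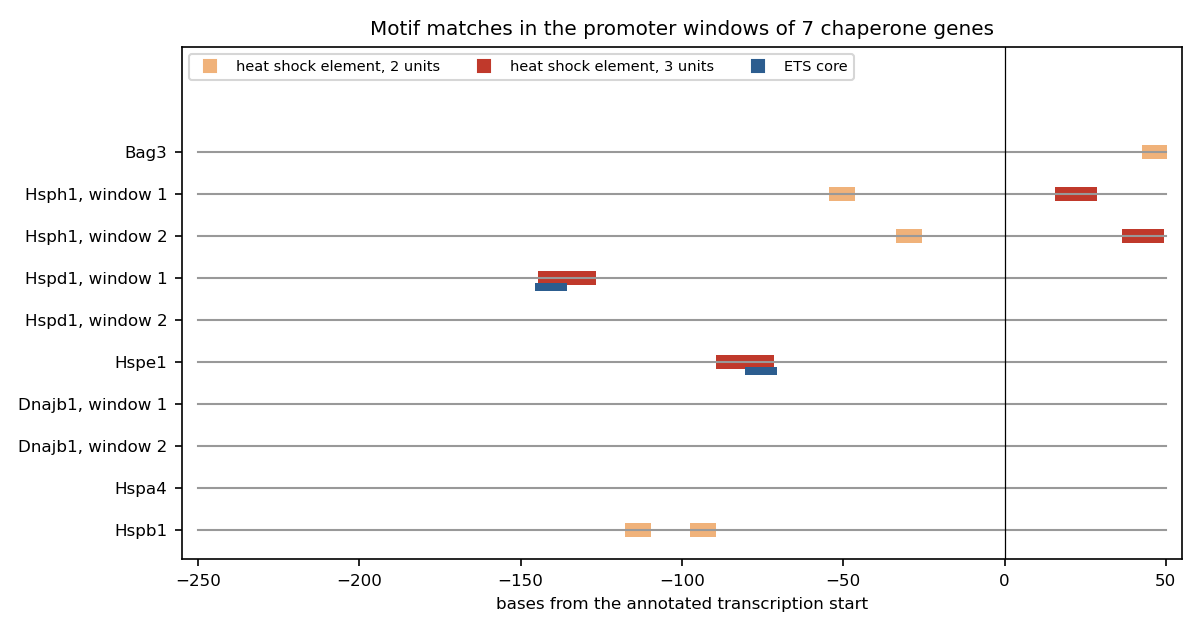
Positions of motif matches (x axis, bases from the annotated transcription start, marked by the vertical line) in the 10 promoter windows of 7 chaperone genes (grey lines). Red marks heat shock elements of 3 units, orange those of 2 units and blue the ETS core, which appears only on the element shared by Hspd1 and Hspe1.

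The labels were checked against genes whose response is known. Tnf and Il1b, cytokine genes of the Toll-like receptor 4 response, had intensities of 15032 to 18598 and 5304 to 5758 on the 3 KLA arrays, against 162 to 217 and 112 to 127 on the 5 untreated arrays. Gabpa, the gene of the GABP subunit that binds DNA, measured 157 and 127 on the siGABP KLA and siGABP untreated arrays, against 318 and 202 on the matching siCtrl arrays. Gabpb1, its partner subunit, went the other way, at 968 and 414 on those siGABP arrays, against 514 and 226 on the siCtrl arrays. No probe was paired with Kmt2a, the MLL gene, so the siMLL label was not checked. Of 8 macrophage markers on the array, 7 passed the filter, 4 rose and 2 fell with KLA, and their summed intensity was 33870.5 to 42913 with KLA and 37741 to 41471 without. Of the markers of other cells on the array, 2 of 7 of neutrophils, 0 of 3 of B cells, 3 of 6 of T and natural killer cells, 2 of 6 of mast cells, basophils and eosinophils, 6 of 7 of mesothelial cells and fibroblasts, 3 of 5 of dendritic cells and 1 of 2 of erythroid cells passed the filter. Their summed intensities overlapped between KLA and untreated arrays for each list (3975 to 4459.7 with KLA and 3912 to 4874 without for the mesothelial and fibroblast list), and 1 dendritic marker rose and 1 fell. The part of such shifts in the results was not tested, and in bulk RNA fewer cells of a type and less RNA per cell cannot be told apart.

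KLA treatment lowered the mRNA of 5 of the 9 measured genes, Bag3, Hsph1, Hspd1, Hspe1 and Dnajb1, and raised none. The change was largest for the exchange factor Bag3 (2.31-fold lower) and smallest for the HSP40 Dnajb1 (1.27-fold lower). Hspa8, Hspa4, Hspb1 and Hsp90aa1 did not pass the test. KLA changed much of the transcriptome, so these counts stand against a broad background. Of all 8793 genes, 56.8% changed (adjusted p under 0.05, limma with Benjamini-Hochberg adjustment), 36.8% fell and 20.0% rose, and 5 of 9 members called is close to that share. The median change of the 9 members was -0.35 on the log2 scale, against -0.04 over all genes tested.

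Among the HSP70 exchange factors, Bag3, which also links HSP70 to selective autophagy, had intensities of 948, 905 and 922 on the siMLL, siGABP and siCtrl KLA arrays. It had 2091, 1914 and 1952 on the 3 siMLL untreated arrays, 2004 on the siGABP untreated array and 2388 on the siCtrl untreated array. Every KLA value thus lay below every untreated value, and the 3 KLA arrays differed little among themselves. The fitted KLA response, averaged over the siRNAs, was -1.21 ± 0.07 (log2, SE, 3 KLA against 5 untreated arrays, limma adjusted p = 3.46e-08), which ranked 146 from the lowest of 8793 genes. The difference was -1.09 in siMLL, -1.18 in siGABP and -1.41 in siCtrl cells.

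Hsph1, the HSP110 exchange factor of the cytosol, had 607, 566 and 581 on the siMLL, siGABP and siCtrl KLA arrays. The untreated arrays gave 1062, 976 and 1009 with siMLL, 1060.3 with siGABP and 1066 with siCtrl. The groups again did not overlap, and the untreated values stayed within a narrow band across the 3 siRNAs. Hsph1 fell by 0.86 ± 0.06 on the log2 scale (SE, 1.82-fold, limma adjusted p = 2.09e-07) and ranked 343 from the lowest.

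**Figure D2:**
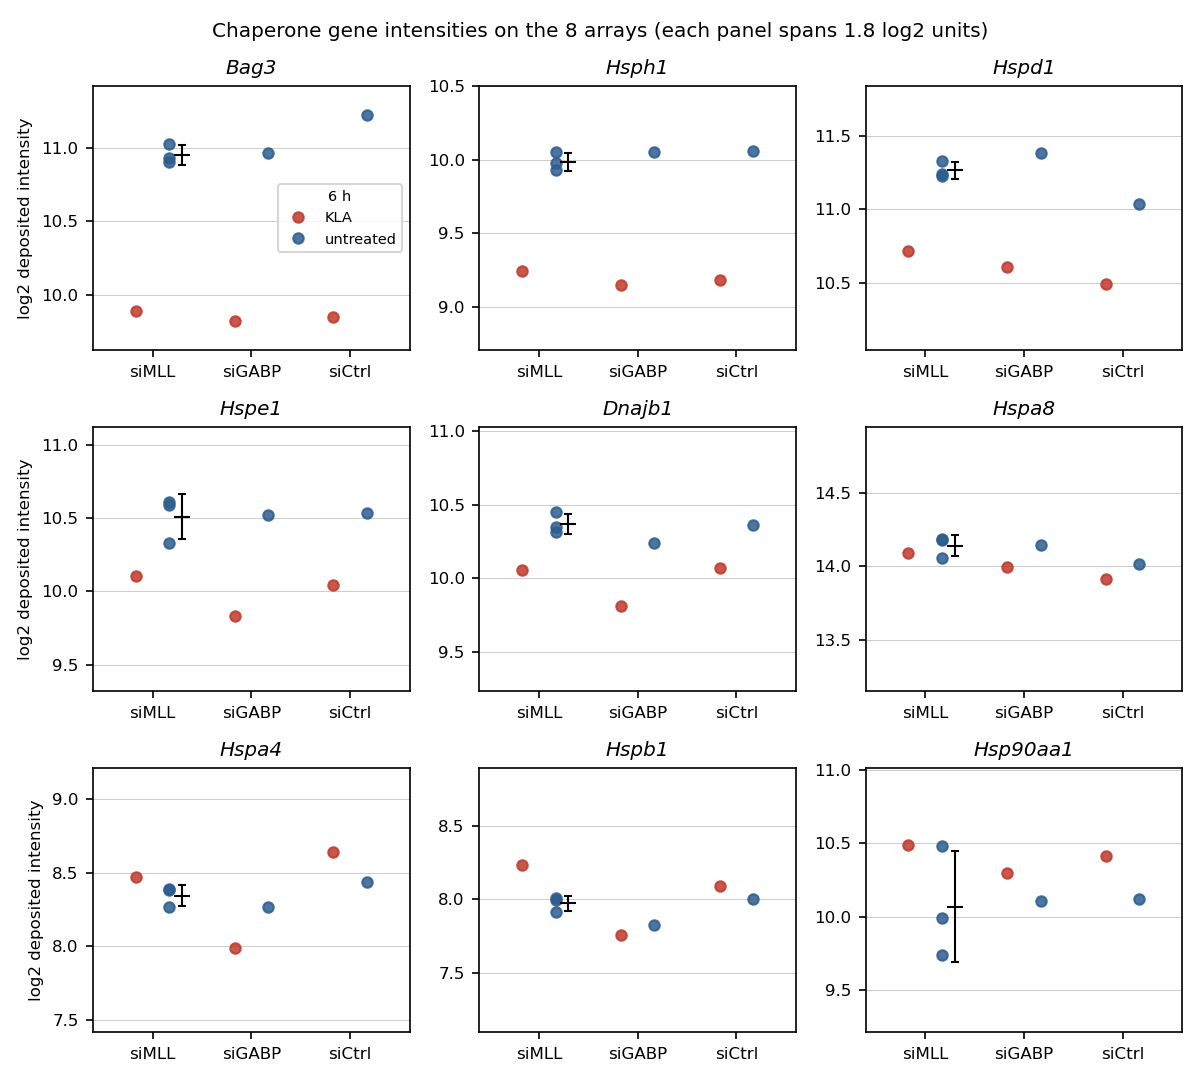
Deposited intensity (log2, y axis) of the 9 measured chaperone genes on each of the 8 arrays, by siRNA (x axis), with KLA arrays in red and untreated arrays in blue. The black bar is the mean ± SD of the 3 siMLL untreated arrays. Every panel spans the same width on the log2 scale but is centred on its own values, so heights cannot be compared between panels. All red points lie below all blue points for Bag3, Hsph1, Hspd1, Hspe1 and Dnajb1, and the colours overlap in the other 4 panels.

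Both components of the mitochondrial chaperonin fell. Hspd1, the HSP60 ring, had 1683, 1560.2 and 1442 on the siMLL, siGABP and siCtrl KLA arrays, against 2421, 2398 and 2577 on the siMLL untreated arrays, 2678 on the siGABP untreated array and 2097 on the siCtrl untreated array. The siCtrl arrays were the lowest in both states, and the KLA and untreated values did not overlap. Its response was -0.62 ± 0.06 (log2, SE, 1.54-fold lower, limma adjusted p = 5.22e-06), with -0.56 in siMLL, -0.79 in siGABP and -0.55 in siCtrl cells. A second, dimmer Hspd1 probe also gave a lower KLA mean (-0.38 ± 0.13, log2, SE, limma adjusted p = 0.0438 over all 20917 annotated probes), but its values overlapped, with 275 to 438.5 on KLA arrays and 364 to 553 on untreated arrays.

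Hspe1, the HSP10 lid encoded on the strand opposite to Hspd1, had 1100.2, 912 and 1058 on the siMLL, siGABP and siCtrl KLA arrays. Its untreated values were 1559, 1289 and 1543 with siMLL, 1467 with siGABP and 1481 with siCtrl. The siGABP KLA array was the lowest, one siMLL untreated array lay below the other untreated arrays, and the groups did not overlap. Hspe1 fell by 0.52 ± 0.08 on the log2 scale (SE, 1.44-fold, limma adjusted p = 1.56e-04).

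Dnajb1, the HSP40 partner of HSP70, had 1066, 898 and 1073 on the siMLL, siGABP and siCtrl KLA arrays, against 1304, 1272 and 1396 on the siMLL untreated arrays, 1208 on the siGABP untreated array and 1317 on the siCtrl untreated array. The siGABP array was the lowest within each state, and the groups did not overlap. The response was -0.35 ± 0.06 (log2, SE, limma adjusted p = 3.10e-04). In all, 5 of 9 members had the 3 KLA arrays below the 5 untreated arrays, against 29.8% of all genes. These 5 falls passed the test under each of the 17 alternative settings, among which median scaling could change nothing by construction. Over these settings the Bag3 response ran from -1.29 to -1.13 and the Dnajb1 response from -0.37 to -0.31.

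**Figure D3:**
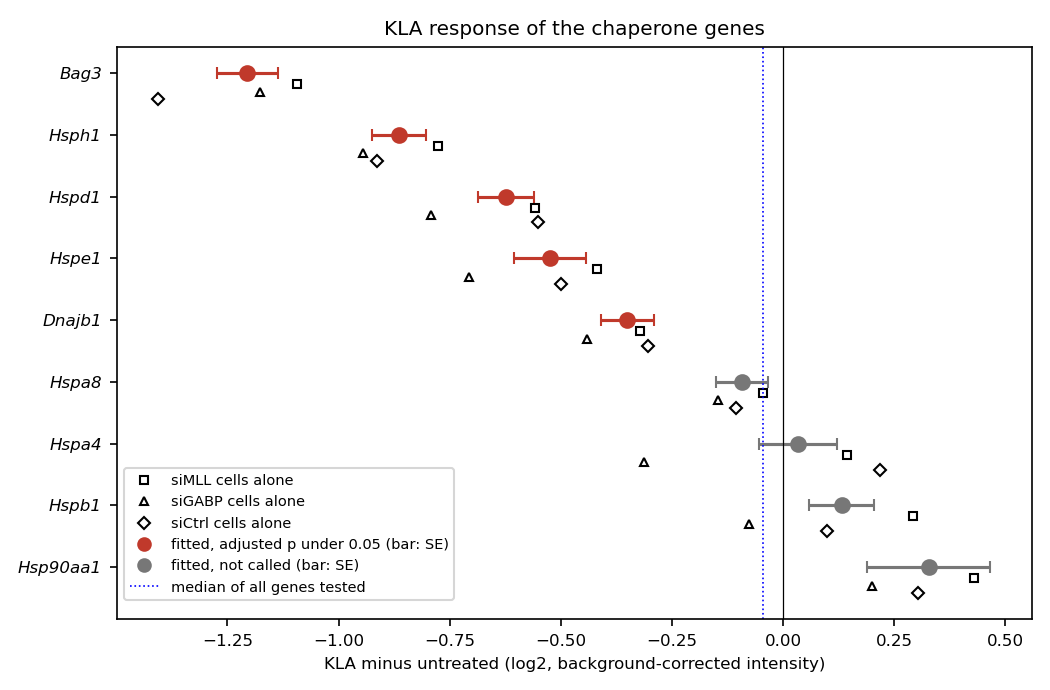
KLA response of the 9 measured chaperone genes (x axis, KLA minus untreated, log2 of background-corrected intensity). Filled circles are the fitted response with its SE, red where the adjusted p was under 0.05, open symbols are the differences within siMLL, siGABP and siCtrl cells, and the dotted line is the median of all genes tested. Responses run from -1.21 for Bag3 to 0.33 for Hsp90aa1, and the siGABP symbol of Hspa4 lies on the other side of 0 from the siMLL and siCtrl symbols.

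Hspa8, the constitutive HSP70, gave different calls by probe. Its brightest probe had 17469.8, 16343 and 15419 on the siMLL, siGABP and siCtrl KLA arrays, against 18598, 17029 and 18507.5 with siMLL, 18079 with siGABP and 16589.7 with siCtrl on the untreated arrays. These values overlapped, and the response was -0.09 ± 0.06 (log2, SE, limma adjusted p = 0.208). The other Hspa8 probes did not overlap between states. One had 10402 to 11228 on KLA arrays and 12333 to 14205 on untreated arrays (-0.27 ± 0.07, limma adjusted p = 0.00929), and the other had 3797 to 4576 and 4651 to 5609.7 (-0.30 ± 0.09, adjusted p = 0.0148), both over 20917 probes. With the probes of a gene averaged, Hspa8 fell by 0.22 (log2, adjusted p = 0.0118).

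Hsp90aa1, the inducible HSP90, had 1435, 1260.4 and 1365 on the siMLL, siGABP and siCtrl KLA arrays. The untreated arrays gave 1429, 854 and 1015 with siMLL, 1102 with siGABP and 1113 with siCtrl. The 3 siMLL untreated arrays spread over a 1.67-fold range (1099 ± 297, SD, n = 3), and the first of them reached the KLA values, while the other 4 untreated arrays lay below all KLA arrays. The response was 0.33 ± 0.14 (log2, SE, 95% confidence interval 0.02 to 0.63; limma adjusted p = 0.0631). It passed in 2 of the 17 alternative settings, without that first array (0.41, adjusted p = 0.00353) and with the 3 arrays averaged, which removes their spread from the fit (0.31, adjusted p = 0.00335). Over all 17 the response ran from 0.25, without the siMLL KLA array (adjusted p = 0.306), to 0.41.

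Hspa4, another HSP110 exchange factor, had 356, 254 and 399 on the siMLL, siGABP and siCtrl KLA arrays, against 335, 307 and 334 with siMLL, 307 with siGABP and 347 with siCtrl on the untreated arrays. KLA values were higher with siMLL and siCtrl and lower with siGABP, and the response averaged over siRNAs was 0.03 ± 0.09 (log2, SE, limma adjusted p = 0.77). Hspb1, the small heat shock protein, had 300.3, 216 and 272 on the siMLL, siGABP and siCtrl KLA arrays, against 241, 255 and 258 with siMLL, 226 with siGABP and 257 with siCtrl on the untreated arrays. The siGABP arrays were the lowest in both states, and the response was 0.13 ± 0.07 (log2, SE, adjusted p = 0.146). Leaving out either one of the siGABP arrays, the Hspb1 response was 0.22 (adjusted p = 0.0293), and without the siMLL KLA array it was 0.01 (adjusted p = 0.92). The KLA difference had the same sign for all 3 siRNAs in 7 of the 9 members, Hspa4 and Hspb1 being the exceptions, and in 6187 of the 8793 genes.

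With every annotated probe tested and no filter, 9 of the 15 member probes changed with KLA (8 lower and 1 higher), against 27.4% of 20917 probes. These shares are not like for like, because the 20917 probes include the dim ones, whereas 12 of the 15 member probes passed the filter. Among the 8793 genes past the filter, 56.8% were called, so the member count does not show more KLA change than among measured genes. The 3 member probes under the filter were a Hspa4 probe and a pair of Hsp90aa1 probes at 107 to 148. One of these, for Hsp90aa1, was the probe called higher (0.30 ± 0.09, log2, SE, limma adjusted p = 0.0268), with 148, 107 and 138 on the siMLL, siGABP and siCtrl KLA arrays and 109 to 121 on untreated arrays.

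The genes around these members did not move in 1 direction. Of 89 other chaperone genes listed by family, 63 passed the filter, and KLA raised 15 and lowered 18 of them (52.4% called, median change 0.00, log2). Of all genes, 56.8% were called, 20.0% up and 36.8% down, so the share called was close to that background. Among the 15 genes of the HSP90 family and its cochaperones, 5 rose and 4 fell (60% called, also close to it). The adaptor Stip1, which holds HSP70 and HSP90 together, rose by 0.84 ± 0.05 (log2, SE, limma adjusted p = 1.21e-07), and the immunophilin Fkbp5, an HSP90 partner in steroid receptor complexes, rose by 0.68 ± 0.07. Among 14 DnaJ genes, 3 rose and 5 fell (57.1% called), and Dnaja2, an HSP40 of the cytosol, rose by 0.83 ± 0.07. In the HSP70 and HSP110 family, 2 of 5 rose and 1 fell (60% called). The risers were Hspa4l, an HSP110 closely related to Hspa4 (0.77 ± 0.12), and Hspa5 (BiP), the HSP70 of the endoplasmic reticulum (0.56 ± 0.15). These are averages over siRNAs. The KLA responses of Hspa4l and Hspa5 were lower in siGABP than in siCtrl cells (-0.73 ± 0.26 and -0.91 ± 0.33, log2, SE), differences that did not pass the test.

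The next list held other HSP70 exchange factors, a ubiquitin ligase and the cochaperone Sgta. Of its 9 measured genes, 3 fell, Sgta among them, and 0 rose, against 36.8% of all genes that fell. Among the members that are exchange factors, Bag3 and Hsph1 fell and Hspa4 did not pass. Bag4, which like Bag3 carries a BAG domain, fell by 0.47 ± 0.08 (log2, SE, limma adjusted p = 2.02e-04), and the other genes called, chosen for naming after their values were seen, were Grpel2, an exchange factor of mitochondrial HSP70 (-0.32 ± 0.05), and Sgta (-0.17 ± 0.07). Of 6 small and other heat shock proteins, 1 rose and 3 fell, against 20.0% of all genes that rose and 36.8% that fell. Clpp, the protease subunit of the mitochondrial matrix, fell by 0.63 ± 0.05, and Hspb8, the small heat shock protein that partners Bag3, fell by 0.57 ± 0.07. Of 12 genes of the cytosolic chaperonin and prefoldin, 4 rose, 0 fell and 8 did not pass, against 56.8% of all genes called. The 4 were Pfdn4 (0.37 ± 0.08), Vbp1 (0.27 ± 0.09), Cct3 (0.23 ± 0.09) and Cct2 (0.22 ± 0.06), also named after their values were seen. Both measured genes of the list of heat shock factors and regulators fell, against 36.8% of all genes that fell. They were the heat shock factor Hsf2 (-0.32 ± 0.09) and the HSF1 inhibitor Hsbp1 (-0.42 ± 0.06), named after their values were seen as well. The heat-inducible HSP70 genes Hspa1a and Hspa1b and the constitutive HSP90 gene Hsp90ab1 had no annotated probe.

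**Figure D4:**
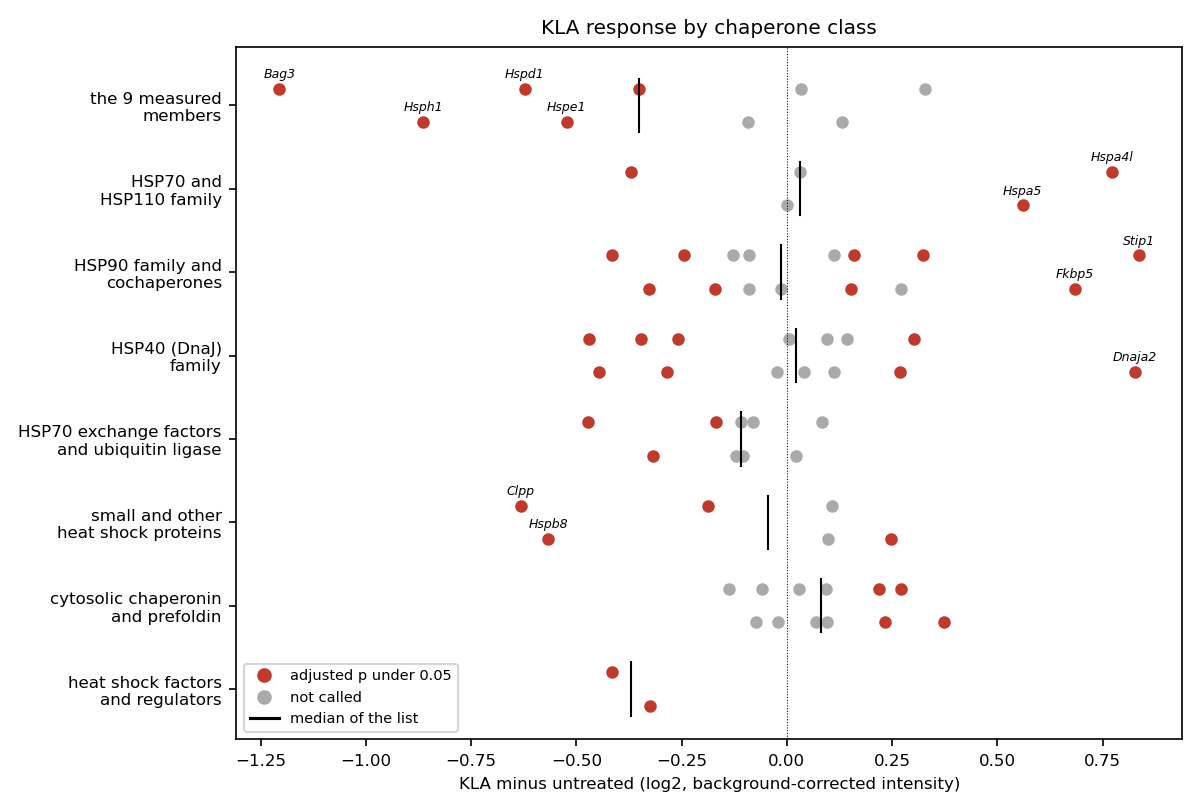
KLA response (x axis, KLA minus untreated, log2 of background-corrected intensity) of the 9 measured members and of 63 other chaperone genes by class (y axis), each point 1 gene, red where the adjusted p was under 0.05, with the median of each list as a black bar and called genes beyond 0.5 named. Members reach -1.21, whereas the other classes lie between -0.63 for Clpp and 0.84 for Stip1.

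With siMLL, no member passed the test. Averaged over KLA states (4 siMLL against 2 siCtrl arrays), 0 of 9 passed the limma test, against 6.94% of all genes. An unadjusted p under 0.05 was found for 1 of 9 members, against 1966 of all 8793 genes. The differences ran from -0.17 for Hspa4 to 0.22 for Hspd1 (log2; 95% confidence interval of Hspd1 0.05 to 0.38, adjusted p = 0.111). The Hspd1 difference was 0.23 in KLA-treated and 0.24 in untreated cells. For Bag3 the interval was -0.32 to 0.03 and for Hsph1 -0.18 to 0.13, so changes within these bounds were not excluded. Among the other chaperone genes, 2 rose and 1 fell of 63, with 2 calls when the siMLL KLA array was left out, 1 when the siCtrl KLA array was and 0 when the siCtrl untreated array was. Fkbp4, an immunophilin that binds HSP90, rose by 0.45 ± 0.06 (log2, SE, limma adjusted p = 0.0026), Clpp rose by 0.33 ± 0.06, and Hspa2, an HSP70 most abundant in testis, fell by 0.36 ± 0.08.

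With siGABP, 1 of the 9 members was called, Hspa4, which was lower. That count is close to the share over all genes, of which 11.3% were called in either direction (481 of 8793 lower). On the KLA arrays Hspa4 had 254 with siGABP and 399 with siCtrl, and on the untreated arrays 307 with siGABP and 347 with siCtrl. The siGABP KLA array was the lowest of all 8, whereas the siGABP untreated value lay within the range of the 3 siMLL untreated arrays. The fitted difference was -0.46 ± 0.12 (log2, SE, 2 siGABP against 2 siCtrl arrays, 1.38-fold lower, limma adjusted p = 0.0301), with -0.73 in KLA-treated and -0.20 in untreated cells. The call was lost without the siGABP KLA array (-0.22, adjusted p = 0.325), without the siCtrl KLA array (-0.33, adjusted p = 0.283) and without the third siMLL untreated array (-0.46, adjusted p = 0.0502). A dimmer Hspa4 probe, under the filter, showed -0.0020 ± 0.11 (adjusted p = 0.996).

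Hspd1 and Hspe1, which shared the stretch with the ETS cores in one window each, did not pass the siGABP test. Hspd1 differed by 0.24 ± 0.08 (log2, SE, limma adjusted p = 0.0976; 95% confidence interval 0.05 to 0.42) and Hspe1 by -0.12 ± 0.11 (adjusted p = 0.524; interval -0.35 to 0.12). Their estimates thus had opposite signs. Hspb1 differed by -0.30 ± 0.10 (adjusted p = 0.071) and Dnajb1 by -0.20 ± 0.08 (adjusted p = 0.134). An unadjusted p under 0.05 was found for 4 of 9 members, against 2334 of all 8793 genes. With every annotated probe tested, 0 of 15 member probes passed in the siMLL comparison, against 1.61% of all probes, and 0 of 15 in the siGABP comparison, against 2.90%. At an unadjusted p under 0.05 there were 1 and 6 of 15, a count that was not made over all probes. Both comparisons share the siCtrl arrays.

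Of the other 63 chaperone genes, 3 rose and 5 fell with siGABP, against 11.3% of all genes called. This count of 8 depended on single arrays, being 0 when the siGABP KLA array was dropped, 1 when siCtrl KLA was, 3 when siCtrl untreated was, 4 when siMLL KLA or the third siMLL untreated array was, and 5 when the first siMLL untreated array was. Dnaja2 (-0.48 ± 0.09, log2, SE, limma adjusted p = 0.00668), the small heat shock protein Cryab (-0.38 ± 0.07), Hspa2 (-0.37 ± 0.09), the mitochondrial HSP90 Trap1 (-0.29 ± 0.08) and the HSP90 cochaperone p23, encoded by Ptges3 (-0.28 ± 0.08), were lower. The HSP70 exchange factor Hspbp1 (0.37 ± 0.10), the cochaperone Sgta (0.32 ± 0.09) and Fkbp4 (0.30 ± 0.07) were higher. Fkbp4 and Hspa2 were thus called in both siRNA comparisons, with differences of 0.45 and -0.36 in the siMLL comparison.

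**Figure D5:**
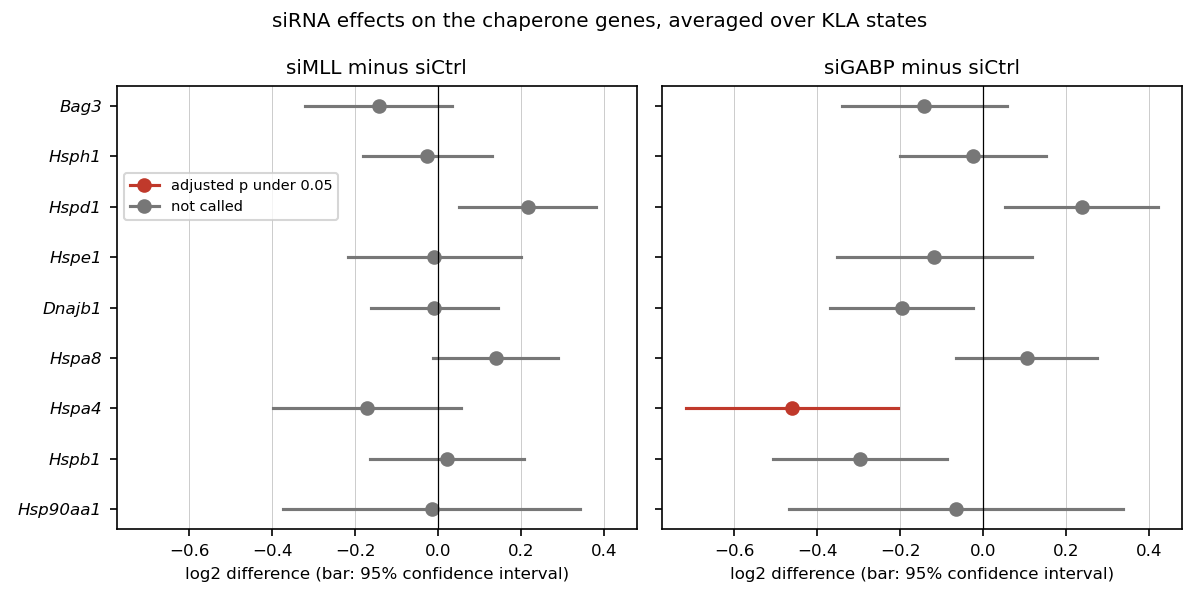
Differences of the 9 measured chaperone genes from siCtrl (x axis, log2, with 95% confidence intervals) for siMLL (left) and siGABP (right), averaged over KLA-treated and untreated cells, red where the adjusted p was under 0.05. Only the siGABP difference of Hspa4 (-0.46) is red, and its interval is the one that lies farthest from 0.

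Neither siRNA detectably altered the KLA response of a member. With 1 mean per group, 0 of 9 members differed in KLA response between siMLL and siCtrl cells and 0 of 9 between siGABP and siCtrl cells, against 0.0114% of all genes in each comparison (1 gene of 8793). At an unadjusted p under 0.05 there were 0 and 1 of 9, against 640 and 747 of all 8793 genes. The widest differences were those of Hspa4 in siGABP cells (-0.53 ± 0.15, log2, SE, limma adjusted p = 0.483) and of Bag3 in siMLL cells (0.31 ± 0.14, adjusted p = 0.678). The spread in this fit came from the 3 siMLL untreated arrays alone. Among the other chaperone genes, 0 of 63 passed in either comparison, with 2 in the siMLL and 5 in the siGABP comparison at an unadjusted p under 0.05. Over all 8793 genes these counts were 640 and 747.

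The gene whose pattern over the 8 arrays was most like that of each member was found by Pearson correlation of log2 values over 8792 other genes. For Bag3 it was Rasgrp3 (r = 0.9984), for Hsph1 Coro1c (0.9974), for Hspe1 Tmed10 (0.9952), for Hspa4 Nup62 (0.9941), for Dnajb1 Mettl3 (0.994) and for Hspd1 Wdr24 (0.9938). Lower values were reached for Hspa8 with Mctp1 (0.9789), Hspb1 with Arntl2 (0.9599) and Hsp90aa1 with Usp10 (0.955). No other member or listed chaperone gene was the nearest gene of a member. All 8 arrays share the KLA contrast and the same normalization, so these coefficients describe likeness over 8 points and carry no test.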

How the data were processed

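Gene expression was measured in 8 samples of siRNA-transfected macrophages, 1 Illumina array each. The deposited values are probe intensity values on a linear scale, traced by the submitters' processing notes to BeadStudio 1.5.1.3, and the 8 columns held the same 23978 values once sorted (a distribution made equal by the authors, which quantile normalization does; 68.5 to 62999, median 139.5). No background had been subtracted, so folds of dim genes are understated. The other deposited table has 16 columns of signals and detection values under running sample numbers that match no label, and these were not used.

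Intensities were background-corrected with the normexp method (offset 50), quantile normalized and log2 transformed with limma 3.58.1 in R 4.3.3. Of 20917 probes paired with 1 gene, those with a mean above the median of all probes (6.73, log2) were kept, and the brightest probe stood for each of 8793 genes. KLA and siRNA effects came from 1 additive model over all 8 arrays (4 residual degrees of freedom), and differences in KLA response from a model with 1 mean per group (2 residual degrees of freedom). The tests were two-sided, with Benjamini-Hochberg adjustment over all genes and a threshold of 0.05, and the code was tested on simulated data. Precision is limited by the number of arrays. Members and gene lists were chosen with earlier results of these data known. Named were the 10 members, per comparison up to 8 called chaperone genes with the largest absolute change, the targeted genes with Tnf and Il1b, and the nearest gene of each member; others are stated as chosen after their values were seen. Alternatives were other probe filters, probe summaries, background offsets, scaling, variance and group settings, and leaving out each array. Promoter sequences came from RefSeq (GRCm38.p6).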

Additional observations from a re-analysis of the deposited data

Results flagged for a closer look

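The KLA response differed between siRNA groups, by the test of the difference itself, for 1 gene, Slc2a6, which is no chaperone gene and was named after its values were seen. Its KLA response was 3.02 in siMLL, 2.63 in siGABP and 4.64 in siCtrl cells (log2), so that the difference from siCtrl cells was -1.63 ± 0.13 for siMLL (SE; limma adjusted p = 0.0272) and -2.02 ± 0.15 for siGABP (adjusted p = 0.0112). Both differences rest on the same siCtrl KLA and untreated arrays, with 1 array in each, and the spread behind both p-values came from the 3 siMLL untreated arrays alone, which may be technical replicates. With a normexp offset of 16, 0 genes were called in either comparison, and without the third siMLL untreated array 0 were called for siMLL. The cause was not tested.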

How the results depend on the processing

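No paired analysis was possible because only the siMLL untreated group carries replicate numbers. Median scaling in place of quantile normalization changed nothing by construction, since the deposited arrays share 1 distribution, and an alternative that needs detection values was not run. Of the values of members under the alternatives, 558 kept their sign and side of the threshold, 31 that were called in neither setting changed sign, 9 newly passed and 5 no longer passed. No called value changed sign. The falls of Bag3, Hsph1, Hspd1, Hspe1 and Dnajb1 with KLA were called under all 17 alternatives.

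Leaving out 1 array at a time gave 4437 to 5039 calls for the KLA response (4998 with all arrays), 189 to 639 for siMLL (610) and 213 to 1102 for siGABP (992). The tests of a changed KLA response were repeated only without each of the 3 siMLL untreated arrays, not without the single arrays of the other groups, and gave 0 to 1 for siMLL and 1 in each of the 3 for siGABP. Members called were 5 to 6 with KLA, 0 with siMLL and 0 to 2 with siGABP. Calls among the 63 other chaperone genes were 25 to 32 with KLA (33 with all arrays), 0 to 4 with siMLL (3) and 0 to 11 with siGABP (8), and calls among the 15 member probes were 7 to 10, 0 and 0 to 1.

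Without the filter on dim probes there were 348 siMLL and 542 siGABP calls, 0 members and 3 other chaperone genes called with siGABP. With a normexp offset of 16, 0 members and 5 chaperone genes were called with siGABP, and 0 genes in either test of a changed KLA response. With the probes of a gene averaged, 2 members were called with siGABP and 2 genes differed in KLA response with siMLL. With 1 mean per group, 2 members and 1 member probe were called with siGABP. Without background correction, 3 genes differed in KLA response with siMLL and 1 member probe was called with siGABP. With the siMLL untreated arrays averaged, 250 genes were called with siMLL and 1 member probe with siGABP, as was 1 with a variance trend. Fewer arrays or more probes enter some of these fits, and the cause of the changed counts was not tested.

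Among single members, the siGABP call of Hspa4 was also lost without the filter (adjusted p = 0.0514) and with an offset of 16 (adjusted p = 0.0515), over a range of -0.71 to -0.22 (log2) and adjusted p of 0.00523 to 0.325 in limma. Hspb1 passed the siGABP test with 1 mean per group (adjusted p = 0.0406), without the siGABP untreated array (-0.44, adjusted p = 0.0324) and without the siMLL KLA array (adjusted p = 0.0459), and Hspd1 passed with its probes averaged (0.34, adjusted p = 0.0453).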

Other observations

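Some chaperone genes were grouped by the compartment in which their proteins work, a grouping made after their values were seen. Those of the endoplasmic reticulum and of mitochondria responded to KLA in both directions, where 36.8% of all genes fell and 20.0% rose. The genes named here are not every measured gene of these compartments. In the endoplasmic reticulum, the HSP70 Hspa5 rose on average over siRNAs (0.56 ± 0.15, log2, SE, limma adjusted p = 0.00766). Its response was lower in siGABP than in siCtrl cells (-0.91 ± 0.33), a difference that did not pass the test. The HSP90 Hsp90b1 fell (-0.33 ± 0.06) and the collagen chaperone Serpinh1 fell (-0.19 ± 0.06). Hyou1 (0.0010 ± 0.07), Dnajb9 (0.04 ± 0.06), Dnajc3 (-0.02 ± 0.06) and the Hspa5 exchange factor Sil1 (-0.12 ± 0.06) did not pass the test.

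In mitochondria, the chaperonin genes Hspd1 and Hspe1 fell along with the protease subunit Clpp (-0.63 ± 0.05), the HSP40 Dnaja3 (-0.45 ± 0.06) and the exchange factor Grpel2 (-0.32 ± 0.05). The mitochondrial HSP90 Trap1 rose (0.15 ± 0.06, limma adjusted p = 0.0446), and the mitochondrial HSP70 Hspa9 (0.03 ± 0.08), its other exchange factor Grpel1 (-0.10 ± 0.05) and the protease Lonp1 (0.10 ± 0.08) did not pass.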
